A study of Homo sapiens with 6 samples.

Results

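Matrix glycoproteins and proteoglycans are the proteins that surround the collagen fibres of a tissue and tie cells to them. The set described here holds 46 genes chosen by symbol from a list of such proteins, out of 21533 genes in the files, and all 46 symbols were found. The choice was made with earlier results of these data known. They were followed in LX-2 cells, a line of immortalised human stellate cells from liver, in 3 samples transfected with a control siRNA and 3 samples transfected with an siRNA against PERK. All 6 samples also received palmitic acid, a saturated fatty acid, and were collected 24 h afterwards, so that no comparison without the lipid is made here. PERK, encoded by EIF2AK3, is a kinase that senses stress in the endoplasmic reticulum, the compartment through which matrix proteins are made and secreted. The labels name no separate cultures behind the samples of a group, so the p-values measure only how far these samples differ from one another, and that spread may be technical. LX-2 is 1 line grown alone, and neither the sequences nor the number of the siRNAs are stated in the labels.

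In liver fibrosis, activated stellate cells are the main source of matrix. Fibronectin, thrombospondins, tenascin and SPARC form or modulate the adhesive part of it. Fibrillins and fibulins build microfibrils and elastic fibres, latent TGF-β binding proteins tether the inactive growth factor TGF-β to those fibres, and nidogens, perlecan and agrin belong to the basement membrane. Small leucine-rich proteoglycans such as decorin and lumican coat collagen fibrils, and syndecans, glypicans and CD44 sit in the cell membrane and bind matrix or growth factors.

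The target of the siRNA was lower in each PERK siRNA sample, with EIF2AK3 at 6.82, 6.92 and 7.28 transcripts per unit of length scaled to a fixed library total (TPM) in control samples and 2.29, 2.63 and 2.90 TPM with PERK siRNA. Depth was 17937141 to 19585872 exon reads per sample, and 3 reads, taken as the detection floor, were 0.153 to 0.167 CPM, the reads scaled to a fixed library total, a limit that covers counting error only. Of 12 stellate or mesenchymal markers, VIM and COL1A1 were abundant, DES had at most 1 read in a sample and LRAT at most 5. The test given below covered 10 of these 12 and called 69.5% of all tested genes higher or lower. Of the 10, 5 rose, among them ACTA2 (3.86-fold), COL1A2 (2.30-fold) and RGS5 (1.99-fold), and 3 fell, among them PDGFRA (2.66-fold) and COL3A1 (1.86-fold). The summed level of the 12 was 4592 to 4723 TPM in control samples and 5095 to 5116 TPM with PERK siRNA. VIM alone went from a mean of 2700 to 3202 TPM. Of 8 hepatocyte markers 6 had no read in any sample, and all 6 lymphocyte markers had a mean under 1 TPM. The summed level of 5 cholangiocyte markers, of which KRT7 and SOX9 fell and CFTR had no read, was 130.6 to 138.4 TPM in control samples and 85.6 to 94.8 TPM with PERK siRNA. That of 8 macrophage markers, of which CD14 and CSF1R fell and CD163, MARCO, C1QA and C1QB had no read, was 132.1 to 139.2 and 120.2 to 123.8 TPM. That of 7 endothelial markers, of which PECAM1 fell and LYVE1 and CLEC4G had no read, was 5.61 to 5.88 and 1.65 to 1.98 TPM. PECAM1 alone went from a mean of 4.44 to 0.313 TPM, while KDR, at means of 0.894 and 1.21 TPM (adjusted p = 0.076), and VWF (adjusted p = 0.48) did not pass. Several of these marker levels moved with the groups, as did those of most tested genes. Among those that did not pass the test given below were COL1A1 (means of 1649 and 1659 TPM, adjusted p = 0.58), HAND2 (adjusted p = 0.96) and CD68 (means of 110.2 and 105.8 TPM, adjusted p = 0.20). The part of the markers in the results below was not tested. In bulk RNA, fewer cells of a kind and less RNA per cell cannot be told apart.

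Matrix genes moved in both directions in the cells with PERK siRNA. Of the 46 members, 35 were tested by edgeR's quasi-likelihood test on read counts, with p-values adjusted over 12973 genes. Of these 35, 13 rose, 16 fell and 6 did not pass at an adjusted p of 0.05. The other 11 members had too few reads to be tested. Across all genes tested the same rule called 69.5%, with 34.4% higher and 35% lower. The median log2 fold change of the 35 tested members was -0.05, against 0.0038 over all tested genes, and the median of its absolute size was 0.42 against 0.28. 3 members fell at least 2-fold and no member rose 2-fold, where 3.84% of all tested genes fell and 4.07% rose by that much. In 30 of the 35 tested members the 3 samples of one group lay wholly above those of the other, against 71.8% of all tested genes. Of the 46 members, 27 had a mean of at least 20 TPM. Among tested genes at that level the shares called were 25 of 27 members and 77.5% of 7185 genes. The members were chosen with earlier results of these data known, so their shares and sizes of change do not stand for matrix genes as a class.

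**Figure D1:**
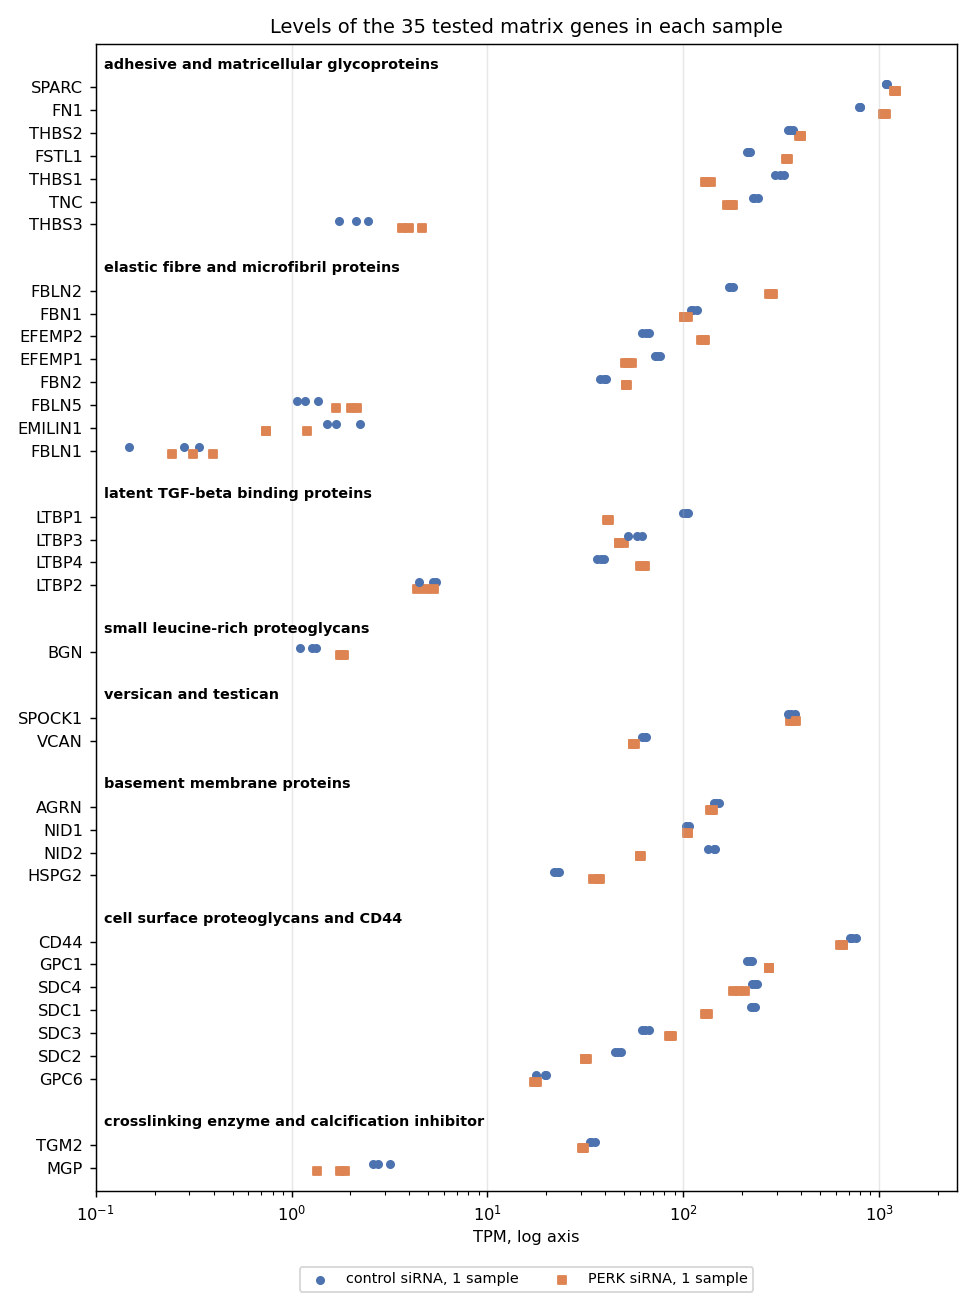
TPM on a log axis for the 35 tested members in each sample, grouped by role, with circles for the 3 control siRNA samples and squares for the 3 PERK siRNA samples. THBS1, LTBP1, NID2 and SDC1 have their squares well to the left of their circles, and EFEMP2, FBLN2 and FSTL1 have them to the right.

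Summed over all 46 members, the level was 6066 ± 118.2 TPM in control samples and 6244 ± 55.6 TPM with PERK siRNA (SD, n = 3 each). The lowest PERK siRNA sample, at 6197 TPM, lay only just above the highest control sample, at 6183 TPM. The makeup of that sum differed more than its size. Adhesive glycoproteins summed to 2987 ± 39.0 TPM in control samples and 3304 ± 21.3 TPM with PERK siRNA, and elastic fibre and microfibril proteins to 467.3 ± 10.6 and 616.2 ± 8.44 TPM (SD, n = 3 each). Lower sums with PERK siRNA were those of the latent TGF-β binding proteins (202.8 ± 7.92 and 155.6 ± 3.63 TPM), the basement membrane proteins (415.0 ± 7.94 and 341.0 ± 4.19 TPM) and the cell surface group (1536 ± 39.9 and 1375 ± 15.4 TPM; SD, n = 3 each), and, at a low level, that of TGM2 and MGP together (37.0 ± 1.43 and 32.3 ± 0.44 TPM). The small leucine-rich proteoglycans summed to 1.51 ± 0.16 and 2.29 ± 0.12 TPM, and versican with testican to 419.3 ± 14.7 and 417.5 ± 12.9 TPM (SD, n = 3 each). Single genes weigh heavily in some sums. In the basement membrane group NID2 alone went from a mean of 140.5 to 60.4 TPM, while HSPG2 rose. Among the latent TGF-β binding proteins LTBP1 went from 102.7 to 41.2 TPM, while LTBP4 rose. These sums describe the set and were not tested.

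**Figure D2:**
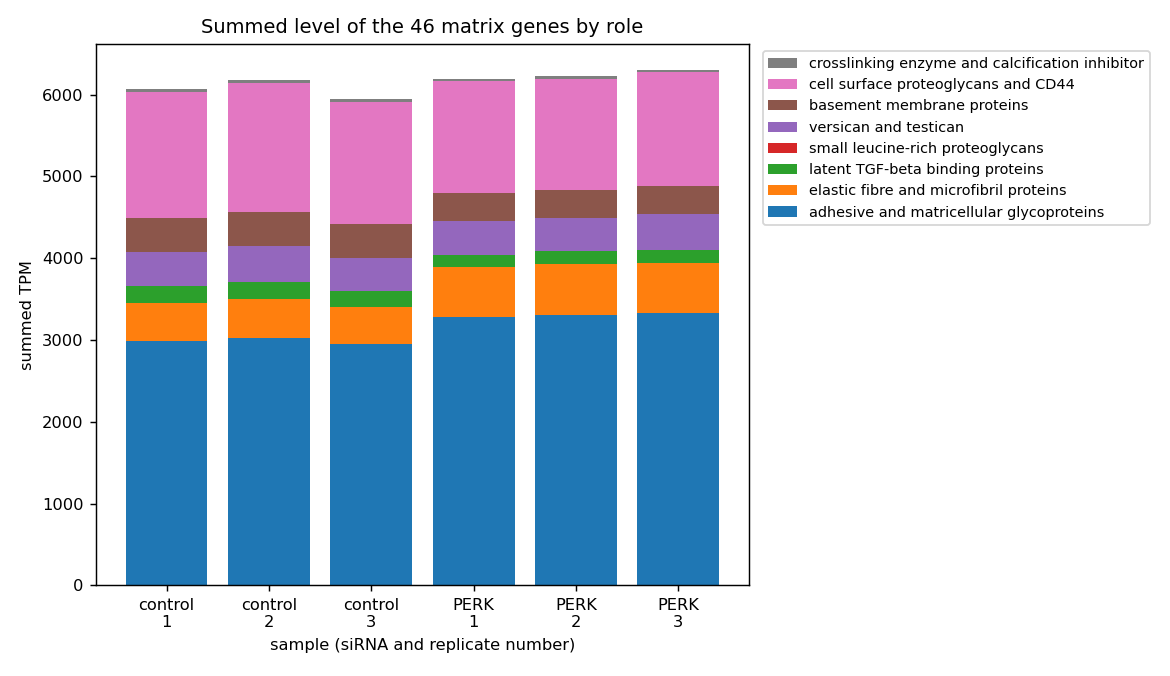
Stacked bars of summed TPM of the 46 members by role, 1 bar for each of the 6 samples. The bars are of similar height, between 5946 and 6305 TPM, while the elastic fibre part is larger and the basement membrane and latent TGF-β binding parts are smaller in the 3 PERK siRNA samples.

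Among the 7 adhesive glycoproteins tested, 5 rose and 2 fell, where 34.4% of all tested genes rose and 35% fell. POSTN, also of this group of 8, was not tested. Fibronectin, which cells bind through integrins, SPARC, THBS2 and others of this group make up 6 of the 16 members with a mean of at least 100 TPM. FN1 (ENSG00000115414; chromosome 2, 215360440 to 215436172, minus strand, GRCh38) stood at 788, 799 and 793 TPM in the control samples and at 1046, 1051 and 1080 TPM in the PERK siRNA samples. The groups did not overlap, and the log2 fold change was 0.42 (SE 0.02, adjusted p = 4.1e-16), a 1.34-fold rise. SPARC, a collagen-binding matricellular protein and the most abundant member per length, was at 1089, 1078 and 1083 TPM in controls and at 1210, 1212 and 1186 TPM with PERK siRNA (0.16, SE 0.02, adjusted p = 4.4e-07). FSTL1, a secreted follistatin-like glycoprotein of the SPARC family, was at 215.0, 218.3 and 211.9 TPM and at 332.6, 342.5 and 338.2 TPM, with the widest gap of the 3 relative to its spread (0.66, SE 0.02, adjusted p = 2.2e-20).

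The thrombospondins, trimeric or pentameric glycoproteins that bind cells, collagen and growth factors, did not move together. THBS1, an activator of latent TGF-β (ENSG00000137801; chromosome 15, 39581079 to 39599466, plus strand), stood at 312.6, 325.3 and 293.1 TPM in control samples and at 128.8, 130.5 and 137.9 TPM with PERK siRNA. All 3 PERK siRNA samples were below all controls, and the log2 fold change was -1.22 (SE 0.03, adjusted p = 1.7e-16), a 2.33-fold fall. THBS2 (ENSG00000186340; chromosome 6, 169215780 to 169254044, minus strand) was at 348.0, 363.5 and 341.0 TPM in controls and at 386.8, 397.3 and 397.7 TPM with PERK siRNA, slightly higher in each sample (0.17, SE 0.02, adjusted p = 2.3e-07). THBS3 was scarce, with 34, 45 and 41 reads in controls and 65, 89 and 76 reads with PERK siRNA, or 2.11 ± 0.36 and 4.08 ± 0.495 TPM (SD, n = 3 each), and rose 1.94-fold (0.96, SE 0.18, adjusted p = 2.1e-05). Tenascin-C, TNC, an anti-adhesive hexamer induced in injured tissue, fell from 230.1, 240.9 and 225.3 TPM to 174.0, 166.5 and 179.9 TPM (-0.41, SE 0.03, adjusted p = 2.6e-12).

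The sequences around the start sites of FN1, THBS1 and THBS2 are shown because these abundant genes of like function responded differently. RefSeq entries for GRCh38.p14 were found for 35 of the 46 members, and each window runs from 250 bases before the start to 50 bases after it, 5′ to 3′ on the gene's strand. They lie at chr2:215436019-215436318 (FN1, minus strand), chr15:39580829-39581128 (THBS1, plus strand) and chr6:169253797-169254096 (THBS2, minus strand). The RefSeq start of THBS1 matches the gene place given above. Those of FN1 and THBS2 lie inside the genes as placed above, so some bases before these starts do too. Capitals mark matches, on either strand, to any of 6 motifs. Those of promoters in general were the CCAAT box, the box known as GC, here the letters GGGCGG, and the box named for its letters TATAAA. Those of regulated factors were GGAATG for the core of the TEAD family's binding sites, TGACGTCA for the cyclic AMP response element (CRE), and TGANTCA for the factor AP-1. No match of one of these motifs overlapped a match of another in the windows shown.
FN1: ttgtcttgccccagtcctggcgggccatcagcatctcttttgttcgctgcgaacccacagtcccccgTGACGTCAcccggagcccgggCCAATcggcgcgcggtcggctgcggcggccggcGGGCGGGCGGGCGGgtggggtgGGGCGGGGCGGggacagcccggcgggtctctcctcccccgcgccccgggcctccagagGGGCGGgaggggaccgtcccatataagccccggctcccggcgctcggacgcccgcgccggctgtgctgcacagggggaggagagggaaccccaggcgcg
THBS1: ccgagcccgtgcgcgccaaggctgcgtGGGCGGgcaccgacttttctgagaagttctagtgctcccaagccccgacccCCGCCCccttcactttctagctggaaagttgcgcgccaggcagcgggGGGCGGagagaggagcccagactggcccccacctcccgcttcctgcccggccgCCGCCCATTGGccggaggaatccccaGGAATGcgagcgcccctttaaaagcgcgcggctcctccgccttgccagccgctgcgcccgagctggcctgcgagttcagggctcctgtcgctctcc
THBS2: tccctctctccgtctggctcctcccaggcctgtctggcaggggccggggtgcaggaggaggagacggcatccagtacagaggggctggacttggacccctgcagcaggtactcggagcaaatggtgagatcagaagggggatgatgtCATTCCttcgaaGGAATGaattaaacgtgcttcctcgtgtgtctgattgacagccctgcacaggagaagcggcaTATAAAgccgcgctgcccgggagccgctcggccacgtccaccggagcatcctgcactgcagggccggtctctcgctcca
The FN1 window held 1 CRE, 1 CCAAT box and 6 GC boxes. Matches to the same motif were each counted even where they shared bases, as several of these GC boxes do. The THBS1 window held 4 GC boxes, 1 CCAAT box and 1 TEAD core, and the THBS2 window 1 TATA box and 2 TEAD cores. Of 35116 windows of this length in the table, 1.85% held a CRE, 34.6% a CCAAT box, 45.0% a GC box, 11.5% a TATA box, 14.0% a TEAD core and 7.71% an AP-1 site. A match describes letters and shows no bound factor.

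In the elastic fibre and microfibril group, 4 of the 8 tested members rose, 3 fell and FBLN1 did not pass the test. Of all tested genes 34.4% rose and 35% fell. Among the 11 members of the group, ELN, MFAP2 and MFAP5 were not tested. EFEMP2, which encodes fibulin-4, needed to assemble elastic fibres (ENSG00000172638; chromosome 11, 65866441 to 65873592, minus strand), had the largest rise among the 35 tested members. It stood at 66.5, 61.2 and 64.6 TPM in controls and at 123.4, 128.6 and 126.7 TPM with PERK siRNA, with wide separation between the groups (0.98, SE 0.04, adjusted p = 3.1e-19; 1.98-fold). EFEMP1, the related fibulin-3, went the other way, from 73.1, 76.2 and 71.3 TPM to 54.3, 50.1 and 52.3 TPM (-0.49, SE 0.04, adjusted p = 9.8e-12). FBLN2, the most abundant fibulin here, was at 173.2, 178.3 and 170.6 TPM in controls and at 274.3, 285.5 and 283.3 TPM with PERK siRNA (0.70, SE 0.03, adjusted p = 2.6e-20). FBLN5, an elastogenic fibulin, was near the floor of reliable counting, with 31, 25 and 24 reads against 42, 38 and 48 reads. It rose by 0.70 on the log2 scale (SE 0.22, adjusted p = 0.0059).

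The fibrillins form the microfibril backbone. FBN1, the main adult form, fell slightly from 113.2 ± 4.37 to 102.1 ± 2.67 TPM (SD, n = 3 each; -0.14, adjusted p = 2.5e-05), and FBN2, the form more typical of development, rose from 39.1 ± 1.56 to 51.3 ± 0.34 TPM (0.40, adjusted p = 5.9e-13). EMILIN1, an elastin-associated glycoprotein, was scarce at 37, 46 and 33 reads in controls and 15, 26 and 16 reads with PERK siRNA. Its log2 fold change of -0.998 carried an SE of 0.26 (adjusted p = 0.0012), and its groups did not overlap. FBLN1 had 5 to 14 reads a sample, and its 95% interval on the log2 scale ran from -0.50 to 1.13 (adjusted p = 0.50), so that a 2-fold rise could not be told from no change at this depth. Elastin itself, ELN, had 1 read in 1 PERK siRNA sample and none in the others, MFAP2 had at most 1 read in any sample, and MFAP5 had none in any sample.

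**Figure D3:**
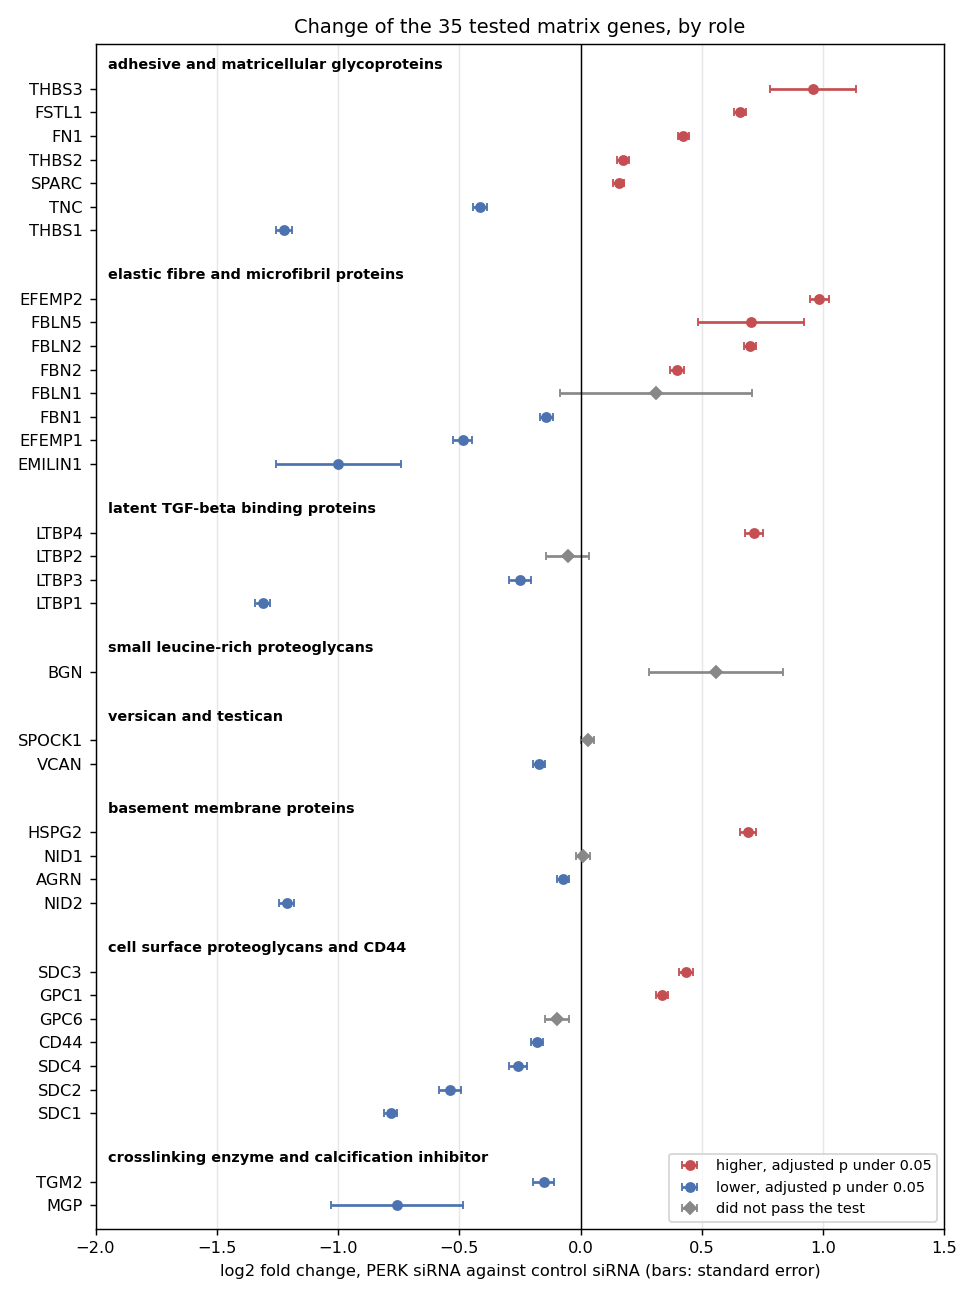
Log2 fold change of the 35 tested members, PERK siRNA against control siRNA, by role, with bars for the standard error and colours for the outcome of edgeR's test. Rises and falls stand side by side within most roles, from -1.31 for LTBP1 to 0.98 for EFEMP2, and the wide bars belong to scarce genes such as EMILIN1, MGP and FBLN1.

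The 4 latent TGF-β binding proteins, all tested, gave 1 rise, 2 falls and 1 member that did not pass. Of all tested genes 34.4% rose and 35% fell. LTBP1 (ENSG00000049323; chromosome 2, 32946972 to 33399509, plus strand), which holds latent TGF-β in the fibrillin and fibronectin network, had the largest fall among the 35 tested members. It stood at 102.8, 105.9 and 99.3 TPM in control samples and at 40.9, 41.0 and 41.7 TPM with PERK siRNA. The groups were far apart and the fall was 2.48-fold (log2 fold change -1.31, SE 0.03, adjusted p = 5.2e-25). LTBP4, which also supports elastic fibre assembly (ENSG00000090006; chromosome 19, 40592883 to 40629818, plus strand), rose 1.64-fold, from 39.2, 36.2 and 37.9 TPM to 59.7, 63.5 and 61.9 TPM (0.71, SE 0.04, adjusted p = 1.8e-16). LTBP3 fell from 57.3 ± 4.76 to 47.9 ± 1.67 TPM (SD, n = 3 each; -0.25, adjusted p = 5.9e-05). LTBP2, which does not bind latent TGF-β, was low at 5.06 ± 0.52 and 4.85 ± 0.47 TPM (SD, n = 3 each), and its change of -0.05 did not pass (adjusted p = 0.61; 95% interval -0.24 to 0.13).

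Of the basement membrane genes, NID2 fell, AGRN fell slightly, HSPG2 rose and NID1 did not pass. The nidogens link the laminin and collagen IV networks. NID2 (ENSG00000087303; chromosome 14, 52004803 to 52069228, minus strand) was at 144.1, 143.3 and 134.1 TPM in controls and at 60.9, 60.3 and 59.9 TPM with PERK siRNA, a 2.32-fold fall with no overlap (log2 fold change -1.21, SE 0.03, adjusted p = 7.9e-24). Of the NID2 reads 85.8% were placed uniquely, and the fall was -1.22 on unique exon reads. In GENCODE v29, 30.0% of its exon bases overlap exons of RTRAF, whose own log2 fold change was -0.21 (adjusted p = 2.5e-06). Whether the counting used strand is not given, so reads over the shared bases may belong to either gene. NID1 (ENSG00000116962; chromosome 1, 235975830 to 236065162, minus strand) was at 103.4, 104.6 and 106.5 TPM and 103.8, 105.8 and 105.8 TPM, with overlapping groups. Its log2 fold change of 0.01 had a 95% interval from -0.05 to 0.07 (adjusted p = 0.76).

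HSPG2, which encodes perlecan, a large heparan sulfate proteoglycan, rose from 22.6, 23.2 and 21.8 TPM to 34.4, 37.3 and 36.9 TPM (0.69, SE 0.03, adjusted p = 1.4e-17). Uniquely placed reads made up 90.5% of its total, and LDLRAD2 shares 11.7% of the HSPG2 exon bases. LDLRAD2 had at most 2 unique reads in a sample. AGRN, encoding agrin, was at 147.1 ± 3.91 and 139.4 ± 2.07 TPM (SD, n = 3 each; -0.07, adjusted p = 0.013). That call was lost without control sample 1 (adjusted p = 0.11) and without PERK siRNA sample 1 (0.056), with adjusted p from 0.0041 to 0.11 over 15 alternatives.

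The windows around the starts of both nidogen genes are shown because one gene fell more than 2-fold and the other did not pass the test. They lie at chr1:236065041-236065340 (NID1, minus strand) and chr14:52069010-52069309 (NID2, minus strand), with the same motifs in capitals. Both RefSeq starts lie inside the genes as placed above, so some bases before them do too.
NID1: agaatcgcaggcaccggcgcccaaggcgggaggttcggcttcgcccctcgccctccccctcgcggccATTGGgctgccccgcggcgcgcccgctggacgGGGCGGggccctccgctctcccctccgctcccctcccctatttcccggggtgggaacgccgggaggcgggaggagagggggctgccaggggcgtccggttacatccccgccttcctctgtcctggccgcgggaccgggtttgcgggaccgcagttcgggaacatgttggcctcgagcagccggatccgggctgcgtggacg
NID2: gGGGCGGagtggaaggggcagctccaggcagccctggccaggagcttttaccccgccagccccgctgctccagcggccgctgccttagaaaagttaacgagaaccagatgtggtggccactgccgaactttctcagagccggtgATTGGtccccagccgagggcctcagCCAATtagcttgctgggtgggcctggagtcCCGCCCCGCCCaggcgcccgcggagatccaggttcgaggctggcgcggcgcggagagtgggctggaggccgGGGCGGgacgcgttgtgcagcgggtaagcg
The NID1 window held 1 CCAAT box and 1 GC box. The NID2 window held 2 CCAAT boxes and 4 GC boxes, some of which share a base. Neither held letters of the other 4 motifs.

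At the cell surface, 7 of 8 genes were tested, of which 2 rose and 4 fell. Of all tested genes 34.4% rose and 35% fell. Syndecans are transmembrane heparan sulfate proteoglycans that act as co-receptors for growth factors and integrins. SDC1 (ENSG00000115884; chromosome 2, 20200797 to 20225433, minus strand) was at 230.4, 226.9 and 221.4 TPM in controls and at 133.5, 129.4 and 129.8 TPM with PERK siRNA, a 1.72-fold fall (log2 fold change -0.78, SE 0.03, adjusted p = 2.3e-20). SDC2 fell from 46.5, 47.9 and 44.5 TPM to 31.4, 31.6 and 32.1 TPM (-0.54, SE 0.04, adjusted p = 9.8e-12). SDC4, a focal adhesion component, fell less, from 230.5 ± 5.76 to 192.0 ± 12.8 TPM (SD, n = 3 each; -0.26, adjusted p = 5.4e-06). SDC3 was the syndecan that rose, from 63.4, 66.8 and 61.3 TPM to 84.1, 87.6 and 85.5 TPM (0.43, SE 0.03, adjusted p = 1.3e-13).

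Glypicans carry heparan sulfate on a lipid anchor. GPC1 rose from 217.9 ± 6.86 to 273.7 ± 0.63 TPM (SD, n = 3 each; 0.34, adjusted p = 1.4e-12). GPC6, at 19.0 ± 1.2 and 17.7 ± 0.30 TPM, did not pass (-0.10, adjusted p = 0.075). Leaving out control sample 3 brought it past the threshold (adjusted p = 0.013, with 0.013 to 0.24 over 15 alternatives). GPC4 had 3 reads or fewer in every sample. CD44, the main hyaluronan receptor, exceeded per length only by SPARC and FN1 among the members, was at 726.4, 759.2 and 710.7 TPM in controls and at 651.6, 630.7 and 647.8 TPM with PERK siRNA. Its groups did not overlap, but the difference was small (-0.18, SE 0.02, adjusted p = 1.8e-07).

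Small leucine-rich proteoglycans were nearly missing from these cells in both groups. LUM, DCN, ASPN and OGN each had 3 reads or fewer in every sample, and FMOD had none in any, which allows up to 3 reads, or 0.153 to 0.167 CPM. PRELP had 7, 7 and 1 reads in controls and 12, 8 and 13 reads with PERK siRNA and did not reach the expression filter. It did reach the filter when any 1 of 4 particular samples was left out, and passed the test without control sample 1 (adjusted p = 0.036), control sample 2 (0.024) or PERK siRNA sample 2 (0.032), but not without control sample 3 (0.23). BGN, encoding biglycan, had 18, 14 and 17 reads in controls and 22, 25 and 24 reads with PERK siRNA. Its groups did not overlap, yet its log2 fold change of 0.56 (SE 0.27) did not pass (adjusted p = 0.072). Outside this family, the adhesive glycoprotein gene POSTN, encoding periostin, had at most 1 read in any sample.

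The versican and testican genes among the members were abundant in both groups. SPOCK1, encoding testican-1, was at 354.3, 371.4 and 343.1 TPM in controls and at 358.8, 351.3 and 375.2 TPM with PERK siRNA, with overlapping groups (0.03, SE 0.03, adjusted p = 0.37; 95% interval -0.03 to 0.09). VCAN, encoding versican, a hyaluronan-binding chondroitin sulfate proteoglycan, fell from 63.1 ± 1.29 to 55.8 ± 0.67 TPM (SD, n = 3 each; -0.17, adjusted p = 1.4e-06). TGM2, a transglutaminase that crosslinks matrix proteins, fell from 34.2 ± 1.14 to 30.6 ± 0.32 TPM (-0.15, adjusted p = 0.0020). MGP, an inhibitor of calcification, had 27, 29 and 25 reads in controls and 12, 17 and 18 reads with PERK siRNA (-0.76, SE 0.27, adjusted p = 0.016). The MGP call was lost with DESeq2 (adjusted p = 0.084), without control sample 2 (0.065) and without PERK siRNA sample 1 (0.077), with a lowest adjusted p of 0.0089 over 15 alternatives.

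The proportions of related genes to each other are given as a description. After the values above had been seen, the ratio of TPM within a sample was computed for all 15 pairs of members of 1 protein family with a mean of at least 20 TPM, in 6 families. In each of the 15 pairs the 3 ratios of one group lay outside the range of the other, but so did those of 80.8% of all 25808520 pairs of the 7185 tested genes at that level. An exact two-sided permutation test gave p = 0.10 for each pair, also after adjustment over the 15, which is the smallest p that 3 against 3 samples allow and does not pass. The ratio of LTBP1 to LTBP4 was 2.62, 2.93 and 2.62 in controls and 0.686, 0.645 and 0.673 with PERK siRNA, so that the order of the pair was inverted. The ratio of THBS1 to THBS2 was 0.884 ± 0.021 in controls and 0.336 ± 0.0095 with PERK siRNA, and that of SDC1 to SDC3 was 3.55 ± 0.13 and 1.53 ± 0.056 (SD, n = 3 each).

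Further pairs changed order as well. EFEMP1 stood above EFEMP2 in all control samples, at a ratio of 1.15 ± 0.0835, and below it with PERK siRNA, at 0.414 ± 0.025 (SD, n = 3 each). NID1 stood below NID2 in controls (0.747 ± 0.041) and above it with PERK siRNA (1.74 ± 0.033; SD, n = 3 each). The ratio of the fibrillins FBN1 to FBN2 went from 2.90 ± 0.11 to 1.99 ± 0.039 (SD, n = 3 each), without a change of order. The smallest relative differences were those of FBLN2 to EFEMP2, 2.72 ± 0.17 and 2.23 ± 0.0087, SDC2 to SDC4, 0.201 ± 0.0071 and 0.165 ± 0.0091, and SDC1 to SDC2, 4.89 ± 0.13 and 4.13 ± 0.11 (SD, n = 3 each).

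**Figure D4:**
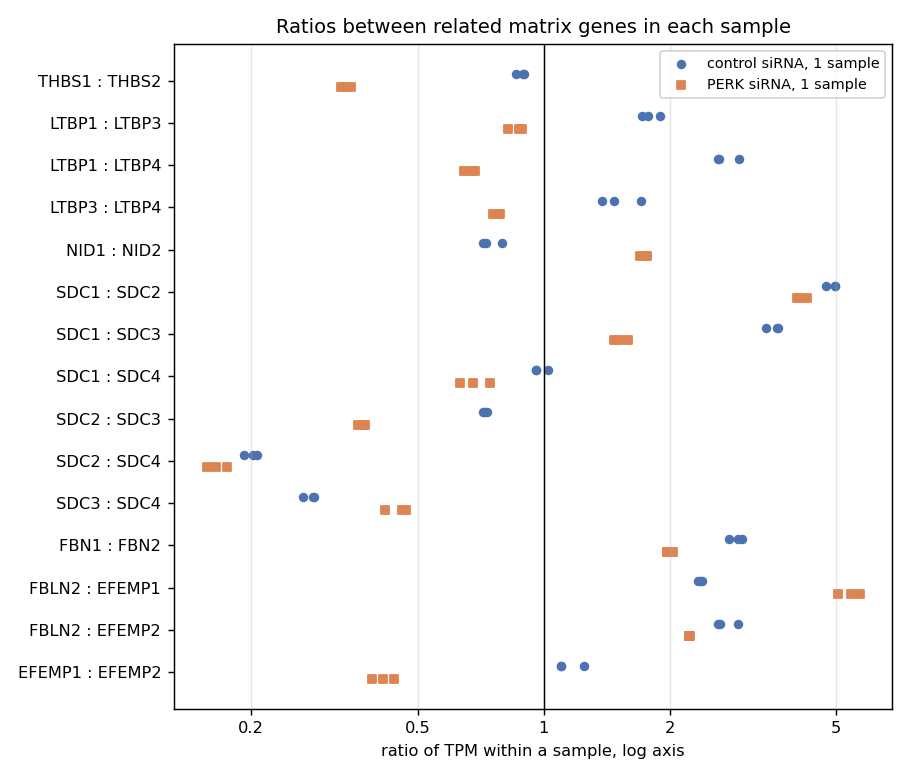
Ratio of TPM between 2 related genes in each sample, on a log axis, for 15 pairs, with circles for control siRNA and squares for PERK siRNA and a line at a ratio of 1. LTBP1 to LTBP4, LTBP1 to LTBP3, LTBP3 to LTBP4, NID1 to NID2 and EFEMP1 to EFEMP2 lie on opposite sides of the line in the 2 groups.

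A list of 69 other matrix genes, among them LOX, LOXL1, TGFBR3 and BCAM, is given for context. It was chosen with earlier results of these data known and does not stand for the whole class. Of the 41 that were tested, 25 rose, 4 fell and 12 did not pass, where 34.4% of all tested genes were higher and 35% lower. The other 28 had too few reads. The median log2 fold change of the 41 was 0.37, against 0.0038 over all tested genes. Their summed level was 2071 ± 42.0 TPM in controls and 2795 ± 3.76 TPM with PERK siRNA (SD, n = 3 each). The largest rises at a mean of at least 5 CPM were those of MATN2, encoding the filament-forming matrilin-2, from 8.67 ± 1.46 to 37.2 ± 1.35 TPM (SD, n = 3 each; 2.10, adjusted p = 2.2e-15), and FBLN7, a further fibulin, from 7.42 ± 0.14 to 27.9 ± 0.25 TPM (1.91, adjusted p = 6.1e-18). CCN2, the matricellular connective tissue growth factor, followed, from 67.9 ± 4.16 to 134.6 ± 1.94 TPM (SD, n = 3 each; 1.00, adjusted p = 3.8e-19). The falls at that level were smaller, at -0.49 for the matricellular gene CCN3 (adjusted p = 7.0e-07), -0.20 for SRPX (0.0019) and -0.17 for MFAP3 (0.014). The MFAP3 call was lost with DESeq2 (adjusted p = 0.061), without control sample 2 (0.063) and without PERK siRNA sample 1 (0.13), with adjusted p from 0.0021 to 0.13 over 15 alternatives.

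Against a null of a 1.2-fold change, 19 of the 35 tested members passed, 11 higher and 8 lower, where 36.1% of all tested genes passed. The 10 members called against no change that did not pass here were SPARC, THBS2, FBN1, LTBP3, VCAN, AGRN, SDC4, CD44, TGM2 and MGP. The fitted changes of the first 9 were under 1.2-fold, whereas that of MGP was 1.69-fold with a wide SE of 0.27 on the log2 scale, from at most 29 reads a sample.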

How the data were processed

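RNA of LX-2 cells was extracted with a column kit and made into directional libraries, per the labels' protocols. Each sample's table holds gene counts of 2 kinds, total and uniquely placed exon reads, beside TPM, as the authors deposited them and per the file headers. The submitters' processing notes name the build hg38. Which aligner, counter and annotation were used is not given in the sources used here. TPM values are printed as deposited and served to compare levels, and total exon reads were tested.

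The test was edgeR 4.0.16 (R 4.3.3), quasi-likelihood, with TMM factors, the default expression filter (12973 of 16842 genes with a read) and robust dispersion, on 3 against 3 samples. The Benjamini-Hochberg adjustment ran over all tested genes. The SE is the log2 fold change divided by the square root of F. On counts simulated from these samples, of 50 genes drawn for each size of change edgeR recovered 29 at 1.2-fold, 41 at 1.5-fold, 44 at 2-fold and 48 at 3-fold. It called 15 of 12669 unchanged genes among the 12866 that reached the filter. Most genes in those counts were left unchanged, whereas 69.5% of genes tested in the real samples were called. Recovery with that share of genes changed was not tested. Between 94.9 and 95.0% of reads per sample were placed uniquely. Replicates differed by more than sampling noise (chi-square per degree of freedom 1.67 to 2.29), so none was taken for a copy.

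Alternatives were other scaling factors, filters, DESeq2 1.42.0, limma-voom (limma 3.58.1), unique exon reads, a replicate block, leaving out each sample, and a 1.2-fold null. Values in every sample were given for the 8 largest rises and 8 largest falls past the threshold, the 6 most abundant members and members of at least 20 TPM that did not pass; TNC was added after its values were seen, and other members have group values or reads. Members and lists were chosen with earlier results of these data known. Gene places are from GENCODE v29 (GRCh38, the assembly of hg38), matched by identifier for 46 of 46 members.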

Additional observations from a re-analysis of the deposited data

How the results depend on the processing

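The counts of members that rose (13) and fell (16) were the same with upper-quartile or median-ratio scaling or none, without the filter, with at least 1 CPM in 3 samples, with limma-voom, on unique exon reads and with the replicate block, while DESeq2 gave 13 and 15. Leaving out 1 sample gave 13 to 14 rises and 14 to 17 falls. Of the 29 called members, 27 kept their call under all 15 alternatives to the test of no change, and AGRN and MGP did not. Against a 1.2-fold change the counts went to 8 falls among members, to 16 rises and 2 falls among other matrix genes, and to 2345 rises and 2344 falls among all genes, since that null asks for more. The changes of sign were in values near 0. NID1 was at -0.00098 with no scaling factors, and leaving out 1 sample gave -0.0017 to 0.024 for NID1 and -0.13 to 0.010 for LTBP2. Replicate numbers did not pair the samples. Deviations of same-numbered samples correlated at 0.011, -0.032 and -0.029 over genes, and the replicate block gave 4460 rises and 4543 falls among all genes and 23 and 4 among other matrix genes. Depth limits what is said of the 11 untested members, and of BGN, FBLN1, FBLN5, EMILIN1, MGP and THBS3, all under 100 reads a sample.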
